A study of Caenorhabditis elegans with 2 samples.

Results

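The X chromosome of Caenorhabditis elegans carried 773 of the 3254 listed binding peaks of the muscle transcription factor HLH-1 in embryos, and these 773 peaks are described here. They are all the rows on X of the authors' optimal list thresholded by irreproducible discovery rate (IDR), on the ce11 build. A place on that list did not require a peak in both replicate lists, since 655 of the 773 overlapped a peak of the replicate 1 list. The remaining 2481 peaks of that list lay on the 5 autosomes and served for comparison. The peaks came from chromatin immunoprecipitation with sequencing (ChIP-seq) of HLH-1 fused to eGFP, in whole embryos of mixed stages and of both sexes. The strain, OP64, carries the unc-119(ed3) allele on chromosome III and the transgene wgIs64, which supplies the fusion. There were 2 biological replicates in 1 group and no second condition, so X and autosomes are compared within the same embryos. The labels give a fragment size range of 150 to 350, give the antibody as hlh-1 and mention a possible control, which was not analysed here. Peak scores are the authors' values of unstated scale and are used here only to rank and describe peaks within a list. Peaks and genes are not replicates: each p-value compares sets of peaks within these lists, and whole embryos give no cell type for any peak.

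HLH-1 is the worm relative of the vertebrate MyoD family, basic helix-loop-helix proteins that drive the muscle programme and bind E-boxes, short sites of the form CANNTG. In the embryo it acts mainly in the body wall muscle lineages, where it works with other factors to turn on contractile genes. The X chromosome differs from the autosomes in that hermaphrodites carry a pair and males a lone copy. A dosage compensation complex binds recruitment sites on both hermaphrodite X chromosomes and lowers their expression, and the motif called MEX marks many of those sites.

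Sequences at high X summits are shown first because the later counts refer to their E-boxes. Each line gives 61 bp of the WBcel235 reference centred on the summit, 5′ to 3′. Capitals mark the E-box hexamer CAGCTG, the hexamer CAACTG or the hexamer CACCTG, on either strand. The first 5, each named by the nearest protein-coding start, belong to the 20 highest X peaks and were picked because a hexamer falls within the printed bases, which is not so for all 20, and tnt-3, unc-27 and mup-2 are contractile genes with high peaks. The capitals CAGTTG and CAGGTG are CAACTG and CACCTG on the other strand. The unc-27 and mup-2 summits are shown as a contrast, since none of these 3 hexamers lay within 50 bp of them.
sup-12, chrX:3900884-3900944, plus strand: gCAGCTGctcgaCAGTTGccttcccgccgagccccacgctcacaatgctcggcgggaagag
tag-278, chrX:3689435-3689495, plus strand: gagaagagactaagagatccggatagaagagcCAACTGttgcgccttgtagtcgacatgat
C04C11.25, chrX:14016751-14016811, plus strand: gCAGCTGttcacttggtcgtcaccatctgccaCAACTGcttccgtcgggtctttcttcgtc
syg-2, chrX:14653685-14653745, plus strand: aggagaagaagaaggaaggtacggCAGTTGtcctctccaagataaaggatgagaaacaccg
fox-1, chrX:2452485-2452545, plus strand: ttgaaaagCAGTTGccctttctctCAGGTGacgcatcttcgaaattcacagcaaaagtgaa
tnt-3, chrX:7945608-7945668, plus strand: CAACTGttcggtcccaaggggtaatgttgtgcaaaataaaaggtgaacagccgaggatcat
unc-27, chrX:8789178-8789238, plus strand: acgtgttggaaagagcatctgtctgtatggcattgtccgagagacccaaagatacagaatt
mup-2, chrX:6410482-6410542, plus strand: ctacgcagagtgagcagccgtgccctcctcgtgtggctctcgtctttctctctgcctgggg

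The 20 highest X peaks lay near genes of several kinds. The highest, with a score of 353.6, had its summit 3670 bp upstream of sup-12, which encodes an RNA-binding regulator of splicing in muscle. It scored 47.8 in replicate 1 and 306.1 in replicate 2, and it ranked 6 and 9 in those lists. It held CAGCTG and CAACTG side by side, as printed above. The next, 260 bp upstream of tag-278, scored 351.2, with 35.5 in replicate 1 and 326.5 in replicate 2. The third, 248 bp upstream of the troponin I gene unc-27, scored 290.3, with 40.1 in replicate 1 and 249.3 in replicate 2. Its summit lay in the annotated exon of a non-coding RNA, ZK721.6. C04C11.25 followed at 288.5, with a summit 1315 bp upstream that again held CAGCTG and CAACTG. The pat-9 peak (263.9) lay 2170 bp upstream of a gene for a zinc finger protein that embryonic muscle needs, and scored 38.5 and 229.4 in replicates 1 and 2. The syg-2 peak (249.0) lay 1253 bp upstream of a gene for an immunoglobulin superfamily protein of synapse formation. Scores differ in scale between lists, so they are read only by rank, and in both replicates these 6 peaks stood among the top 102.

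The lower members of the 20 included F40F4.7 (245.8), C30E1.4 (243.4), let-2 (234.4), igcm-2 (232.2), C18B12.4 (230.3), C05D9.3 (210.3) and sav-1 (208.7). The let-2 gene encodes a type IV collagen chain of basement membranes, and the peak lay 2953 bp upstream of its start. It was 1 of 7 summits within 10000 bp of that start, with scores from 33.5 to 234.4. Several other peaks lay inside genes. The peak nearest pgp-10 (225.1), a gene of the P-glycoprotein transporter family, lay in its exon. Introns held those of fox-1 (219.1), syd-9 (211.4) and ldb-1 (208.5), which encode an RNA-binding protein, a zinc finger protein and a LIM domain-binding protein. Introns of genes other than the one with the nearest start held another 3. E02H4.2 (212.0) was nearest to a summit in madd-3, M03B6.3 (207.4) to one in hlb-1, and F15G9.5 (204.6) to one in him-4, the hemicentin gene, and in F15G9.5 itself.

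Of these 20 summits, 8 were intergenic, 6 intronic and 6 exonic. No more than 500 bp from a protein-coding start were 4 of them, against 30.8% of all X summits, and over 5000 bp away lay 6, against 11.0%. All 20 were found among the top 3254 peaks of both replicates. CAGCTG occurred within 50 bp of 7 of the summits and any of the 3 hexamers within 50 bp of 15. The last peak of the 20 scored 204.6 and the next X peak, nearest ttr-36, 201.0. X held 2 of the 20 highest peaks of the whole list, 10 of the highest 50 and 23 of the highest 100, where its share of the list was 23.8%.

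Peaks were denser on X than on any autosome, both per base and per gene. X held 43.6 peaks per Mb, against 22.4 to 36.4 on single autosomes and 30.1 on the autosomes together. Per 100 protein-coding genes it held 28.3, against 9.37 to 19.0 on single autosomes. The X share of the list was 23.8% (95% Wilson interval 22.3 to 25.2). Its share of the nuclear length was 17.7% (ratio 1.34, exact two-sided binomial test, adjusted p = 4.03e-18) and its share of protein-coding genes 13.7% (ratio 1.74, adjusted p = 4.39e-53). Genes were sparser on X, at 154.1 per Mb against 208.9 on the autosomes together.

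Against sequence outside genes, the X excess was smaller. X held 41.0% intergenic sequence by length, against 31.6% on the autosomes. Of the 1917 intergenic summits, 459 lay on X (23.9%), where X held 21.7% of intergenic bases (ratio 1.10, exact binomial test, adjusted p = 0.0215). This call was lost when summits within 1000 bp of each other were merged (ratio 1.09). Per Mb of intergenic sequence X held 63.2 intergenic peaks, which was below chromosomes III (80.9) and I (76.8) and above II (59.7), IV (45.6) and V (36.5). The X share of summit windows with CAGCTG was 21.8% (108 of 496), and X held 16.4% of the CAGCTG sites of the genome (ratio 1.33, exact binomial test, adjusted p = 0.00260). Within 25 bp of the summit in place of 50 the ratio was 1.21 and did not pass. Of the 3366 CAGCTG sites on X, 4.72% lay inside a peak, against 2.69% to 3.91% on single autosomes. Peaks also covered more of X, 1.24% of its length against 0.629% to 1.02% on single autosomes. The 21.8% share of windows with CAGCTG lay below the 23.8% that X held of all peaks.

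Along X the peaks were spread evenly by the standard of the autosomes. The left, middle and right parts of equal length held 250, 273 and 250 peaks, or 28.7, 28.0 and 28.3 per 100 protein-coding genes. On each autosome the middle part held the most, from 40.9% to 45.6% of that chromosome's peaks. Over 20 equal bins the coefficient of variation of the count was 22.6% on X and 32.3% to 43.7% on autosomes. X exceeded all 5 autosomes in peaks per Mb in 11 of the 20 bins at the same relative position. These were all the bins from 5% to 25% and from 75% to 95% of the length. The others of the 11 began at 35%, 45% and 55%. X lay below the median of the autosomes in the bins that began at 0%, 50%, 60%, 65% and 70%.

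**Figure D1:**
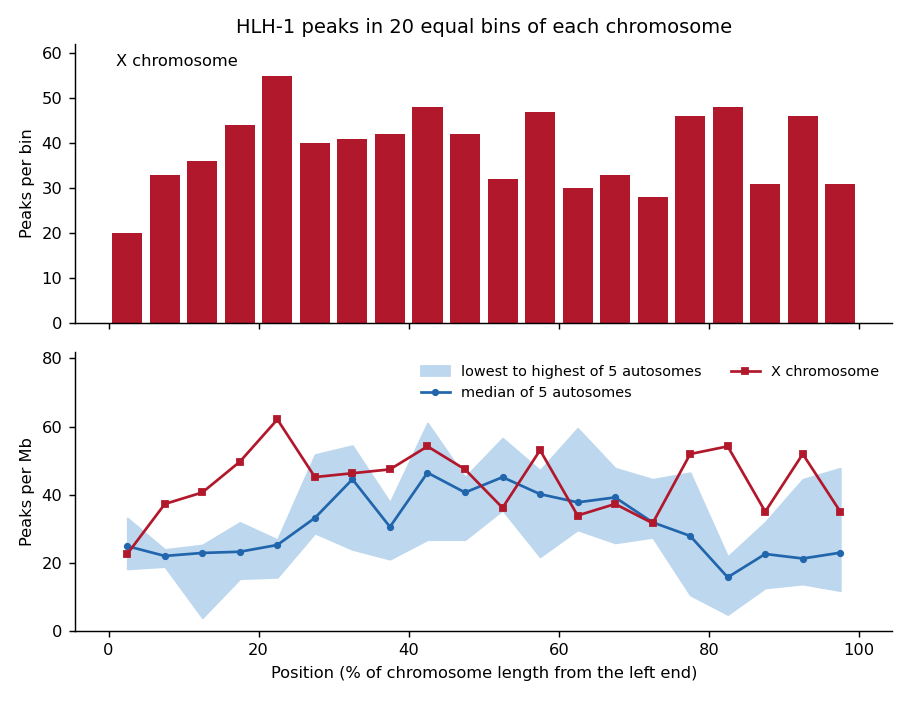
HLH-1 peaks in 20 bins of equal length per chromosome, by position from the left end as a percentage of chromosome length. The upper plot gives X peaks per bin (bars, 20 to 55), and the lower plot peaks per Mb for X (squares), the median of the 5 autosomes (circles) and their range (band), in which X lies above the band in 11 bins.

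The busiest X bin, from 20% to 25% of the length, held 55 peaks and the sup-12 summit, and the emptiest was the leftmost, with 20. Next came bins of 48, 48 and 47 peaks, whose strongest summits were nearest pgp-10 (225.1), syg-2 (249.0) and pkn-1 (140.6), the last a gene for a protein kinase. Bins of 46 peaks followed, whose strongest summits were nearest C04C11.25 and pat-9. Across the X bins, peaks followed CAGCTG sites (Spearman's rho 0.60, n = 20 bins) and protein-coding genes (0.43) in description only, since the bins share 1 pooled library set. Neighbouring X summits lay a median of 12911 bp apart, against 15096 to 20825 bp on single autosomes. The longest stretch without a summit ran for 254050 bp near the left end, chrX:46431-300482. The densest 50000 bp held 11 summits, at chrX:7209600-7259599, nearest spp-22, syd-9 and F46H5.3. In that cluster the scores ran from 32.9 to the 211.4 of the syd-9 intron.

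Scores on X covered much the same range as on the autosomes. The median X score was 58.2, with quartiles of 43.8 and 86.0, a lowest value of 32.6 and a highest of 353.6. Medians on single autosomes ran from 53.5 to 56.9. The highest autosomal score, 964.9 on chromosome II, was at the peak nearest hlh-1, the gene of the tagged protein. On the other autosomes the highest scores ran from 302.3 (IV) to 439.8 (I). Above the median of the whole list lay 52.9% of X peaks and 49.1% of autosomal peaks, a difference of 3.82 points (95% interval -0.219 to 7.83) that did not pass Fisher's exact test (adjusted p = 0.116). In the top 10% of the list lay 9.96% and 9.996% (difference interval -2.32 to 2.54 points, exact test, adjusted p = 1.0). Within the top peaks of replicate 1 alone, 8.28 points more of the X peaks lay above the median, and 4.89 points more lay in the top 10%, and both differences passed the test.

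**Figure D2:**
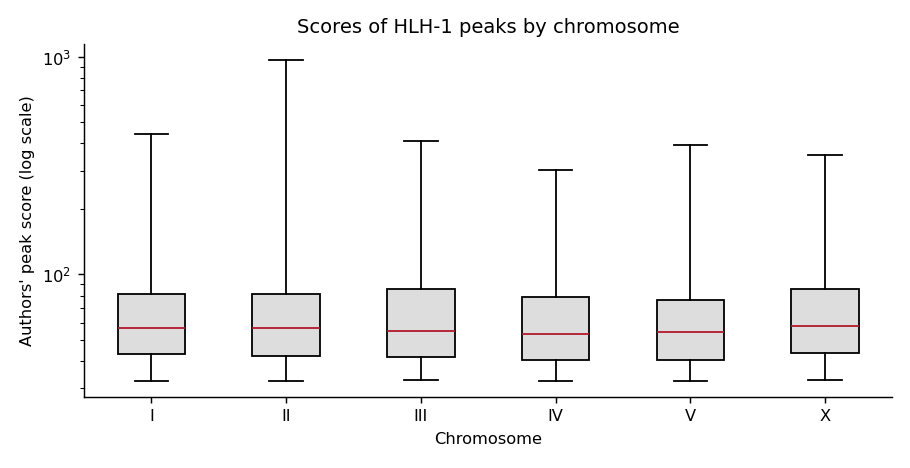
Authors' peak scores by chromosome on a log axis. Boxes span the quartiles with the median as a line and whiskers reach the lowest and highest peak; the X box has its median at 58.2 and its top whisker at 353.6.

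The 2 replicates were compared at X peaks through their own lists. Every one of the 773 X peaks overlapped a peak of the replicate 2 list, and 655 (84.7%) one of the replicate 1 list, against 82.7% of autosomal peaks. The median score at X peaks was 9.11 in replicate 1 and 50.8 in replicate 2. Across the 655 peaks with both values, Spearman's rho was 0.47, as a description, and it was 0.46 on the autosomes. Replicate 2 thus covered every X peak and replicate 1 did not. Among the top 3254 peaks of both replicates were 408 X peaks (52.8%) and 1159 autosomal peaks (46.7%). This difference of 6.07 points (interval 2.03 to 10.1) passed Fisher's exact test (adjusted p = 0.00733), and single autosomes ran from 45.2% to 48.2%.

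The X share was lower far down the lists. In the pooled list X held 22.8% of the top 250 peaks, 27.8% of ranks 501 to 1000 and 17.9% of ranks 10001 to 20000. Replicate 1 gave 31.2%, 28.2% and 16.5% at those ranks. Replicate 2 gave 23.2%, 28.6% and 19.1%. At the weakest of these ranks the shares thus lay near the 17.7% that X holds of the length, and the replicates differed most in their top 250 peaks.

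**Figure D3:**
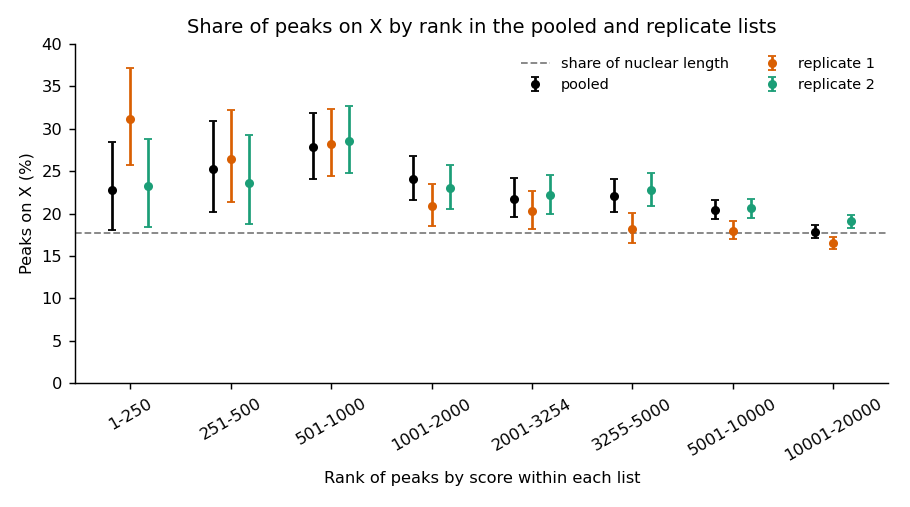
Share of peaks on X (%, with 95% Wilson intervals) by rank of score within the pooled, replicate 1 and replicate 2 lists. The dashed line is the X share of nuclear length (17.7%), and the points lie at 20.3% or more down to rank 3254 in all 3 lists.

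Fewer X summits than autosomal ones lay close to gene starts. The median distance to the nearest protein-coding start was 1276 bp on X, with quartiles of 360 and 3061, and 948 bp on the autosomes. Within 500 bp of a start lay 238 X summits (30.8%) and 39.7% of autosomal summits, a difference of -8.91 points (interval -12.6 to -5.06; Fisher's exact test, adjusted p = 3.89e-05). All 5 autosomes lay above X, from 36.5% to 41.8%. The same 500 bp covered 15.01% of X and 19.6% of the autosomes, so summits were 2.05 times as frequent there as by length on X and 2.03 times on the autosomes. The difference was -0.49 points in the top peaks of replicate 1 alone, -1.17 points among peaks found in both replicates and -4.66 points in the upper 50% of the list by score, and none of these passed the test.

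Most X summits were upstream of the nearest start, 511 of 773 (66.1%), against 67.8% on the autosomes (difference interval -5.51 to 2.10 points, exact test, adjusted p = 0.501). In the top peaks of replicate 1 alone the difference turned to 7.82 points and passed the test. The commonest place was up to 250 bp upstream, with 123 X peaks (15.9%), against 23.3% of autosomal peaks. From 2000 to 5000 bp upstream lay 105 X peaks (13.6%), against 10.4% of autosomal ones. Over 5000 bp from any start lay 11.0% of X peaks and 12.2% of autosomal peaks (difference interval -3.60 to 1.52 points, exact test, adjusted p = 0.501). Such sequence made up 15.9% of X and 13.8% of the autosomes, which gives ratios to length of 0.69 and 0.88. Beyond 10000 bp the difference was -2.06 points, with 1.16% of X and 3.22% of autosomal summits, and passed the test. The farthest summit lay 17091 bp from a start on X and 25821 bp on the autosomes. The 773 X summits had 592 different nearest genes.

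Intergenic summits made up 59.4% of the X peaks and 58.8% of the autosomal peaks (difference interval -3.38 to 4.54 points, exact test, adjusted p = 0.825). In the top peaks of replicate 1 alone they were more frequent on X by 10.5 points, which passed the test. Intronic summits were fewer on X, 17.5% against 23.7% (difference -6.20 points, interval -9.24 to -2.92; Fisher's exact test, adjusted p = 0.00091), and single autosomes ran from 20.3% to 25.7%. Introns covered 31.0% of X and 34.4% of the autosomes, and intergenic sequence 41.0% and 31.6%. Intergenic summits were thus 1.45 times as frequent as by length on X and 1.86 times on the autosomes. Exonic summits were more frequent on X, 23.2% against 17.6% (difference 5.58 points, interval 2.35 to 9.01; exact test, adjusted p = 0.00224), with single autosomes from 12.9% to 21.4%. Exons covered 28.1% of X and 33.9% of the autosomes, which gives ratios to length of 0.82 and 0.52.

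The exonic difference lay in non-coding genes. Exons of protein-coding genes held 62 X summits (8.02%) and 199 autosomal summits (8.02%). Exons of non-coding genes only held 117 X summits (15.1%) and 237 autosomal ones (9.55%). Inside tRNA genes lay 21 X summits, of 276 tRNA genes on X, and 22 autosomal summits, of 336. In the top peaks of replicate 1 alone the exonic difference had the opposite sign (-4.00 points), and among peaks found in both replicates it was 3.48 points and did not pass.

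**Figure D4:**
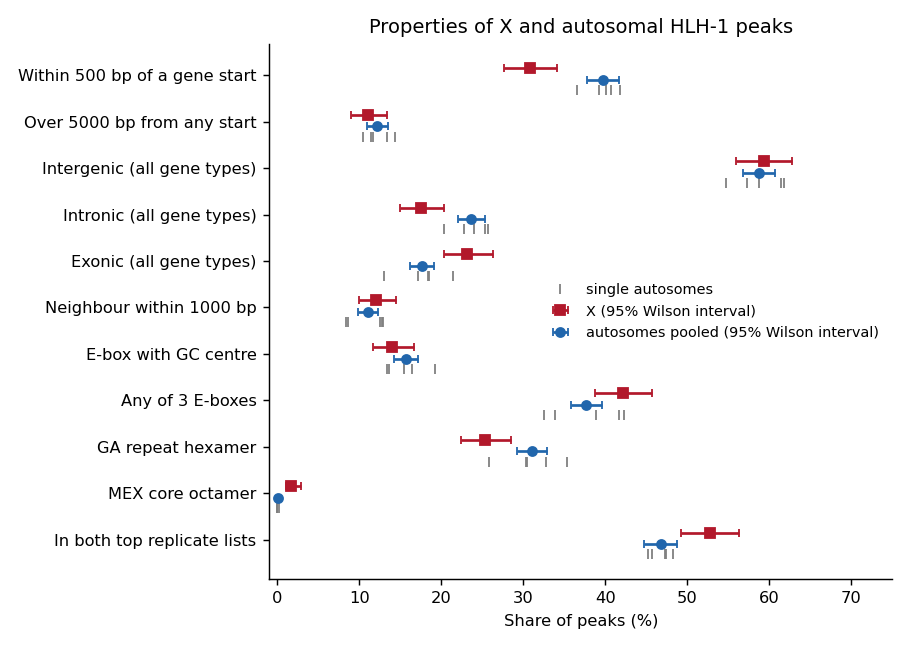
Share of X peaks (squares) and of pooled autosomal peaks (circles) with each property, with 95% Wilson intervals; ticks are the 5 single autosomes. X lies below every autosome within 500 bp of a start and in introns, and above every autosome for exons, the MEX core and presence in both top replicate lists.

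The E-box CAGCTG lay within 50 bp of 108 X summits (13.97%) and of 15.6% of autosomal summits (difference interval -4.38 to 1.29 points; Fisher's exact test, adjusted p = 0.415). In windows of the same size 500 bp away it occurred in 1.81% and 1.61%. The median distance from the X summit to the centre of the site was 19.5 bp, and 66 of the 108 sites lay within 25 bp. CAACTG, the form with which the tnt-3 window above begins, was more frequent than CAGCTG at X summits, in 171 windows (22.1%) against 4.40% of flanking windows. On the autosomes CAACTG occurred in 16.7% of summit windows and 5.32% of flanking windows. Any of the 3 hexamers occurred at 42.2% of X and 37.7% of autosomal summits (difference 4.49 points, interval 0.55 to 8.47), which did not pass the exact test (adjusted p = 0.0523). Within 100 bp of the summit it was 6.07 points and passed.

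Higher X peaks held E-boxes more often. When the X peaks were divided by score into 5 groups of equal size, CAGCTG occurred in 27.1%, 14.8%, 12.9%, 7.14% and 7.79% of windows from the highest group to the lowest. Any of the 3 hexamers occurred in 68.4% of the highest and 32.5% of the lowest group. The autosomes ran from 32.6% to 8.47% for CAGCTG. The median score was 79.5 with CAGCTG and 55.7 without it on X.

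The hexamer GAGAGA, searched on both strands, was less frequent at X summits. It lay in 25.4% of X and 31.0% of autosomal windows (difference -5.68 points, interval -9.15 to -2.03; Fisher's exact test, adjusted p = 0.00629), and in 5.17% and 5.16% of flanking windows. Chromosome V, at 25.9%, was close to X. In the top peaks of replicate 1 alone the difference was -1.62 points. Among peaks found in both replicates it was -5.06 points and in the upper 50% by score -5.62 points, and none of these 3 passed.

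An octamer of the MEX motif, GCGCAGGG, was more frequent at X summits than at autosomal ones. It was searched on both strands within 50 bp of each summit. It occurred at 13 X summits (1.68%, interval 0.985 to 2.86) and at 1 autosomal summit (0.0403%), a difference that passed Fisher's exact test (adjusted p = 1.17e-06). The octamer itself was denser on X, with 81 sites (4.57 per Mb) against 233 on the autosomes (2.82 per Mb). Of the 81 X sites, 21 (25.9%) lay inside an HLH-1 peak, against 6 of 233 (2.58%). In flanking windows it occurred at 1 X and 1 autosomal peak. Binding of the dosage compensation complex was not measured here, and its part in these peaks was not tested.

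The 5 windows below, chosen after their values were seen, are the highest X peaks whose octamer lies within the 61 bp shown. The capitals mark GCGCAGGG or its reverse complement CCCTGCGC.
F20B6.9, chrX:4209252-4209312, plus strand: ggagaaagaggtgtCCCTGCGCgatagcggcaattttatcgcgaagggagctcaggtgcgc
W02H3.3, chrX:11094190-11094250, plus strand: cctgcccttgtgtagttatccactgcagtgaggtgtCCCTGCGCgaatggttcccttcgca
cest-16, chrX:6296519-6296579, plus strand: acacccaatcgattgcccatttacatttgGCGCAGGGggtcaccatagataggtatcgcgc
gtr-1, chrX:806649-806709, plus strand: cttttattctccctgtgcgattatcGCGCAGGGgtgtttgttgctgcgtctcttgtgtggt
nspc-17, chrX:14525881-14525941, plus strand: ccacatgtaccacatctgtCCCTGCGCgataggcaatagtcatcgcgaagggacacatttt

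The scores of these 13 peaks ran from 33.6 to 184.5, with a median of 86.0, against 58.0 for X peaks without the octamer. Over 1000 bp from a start lay 10 of the 13, against 55.8% of all X peaks. The highest, nearest C41A3.2, lay in an exon of pks-1, a polyketide synthase gene, and scored 19.7 in replicate 1 and 161.8 in replicate 2. F20B6.9 (148.2), W02H3.3 (136.3), gtr-1 (102.5) and nspc-17 (99.2) were nearest to intergenic summits, and the cest-16 summit (105.6) lay in an intron of mom-1 with 2 copies. Another pair of copies lay 4882 bp upstream of xol-1, the switch gene of sex determination, where the score was 86.0, with 4.68 in replicate 1 and 84.5 in replicate 2. Of the 13 peaks, 9 were intergenic, 7 were among the top peaks of both replicates and 3 had no peak in the replicate 1 list. Any of the 3 E-box hexamers occurred at 4 of the 13, against 42.2% of all X summits, a difference that was not tested.

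Genes with a summit from 2000 bp upstream to 500 bp downstream of their start are called bound in what follows. On X 429 of 2731 protein-coding genes were bound (15.7%), against 12.3% of autosomal genes (Fisher's exact test, adjusted p = 1.10e-05). The difference of 3.39 points rested on chromosome V, the lowest at 7.29%. Without V it was 1.34 points and did not pass, and chromosomes III (17.7%) and I (15.9%) lay above X. Of the bound X genes 388 had 1 summit in the window, 39 had 2 and 2 had 3. The 2 with 3 were lev-9 and mom-1, which face away from each other and share the same summits, with scores of 61.9, 60.2 and 33.7. The lev-9 gene encodes a protein that clusters acetylcholine receptors on muscle, and mom-1 a protein of Wnt secretion. With 2 summits each, unc-27 (290.3 and 46.5), C04C11.25 (288.5 and 42.8) and F40F4.7 (245.8 and 48.0) came next.

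Of 11 sarcomere genes on X, 10 were bound, beside 15.7% of all X genes and 17 of 27 sarcomere genes on the autosomes. All 4 troponin T and troponin I members that were bound had their summit upstream. The highest was the unc-27 summit described above. The troponin T genes tnt-3 and mup-2 followed with 191.5, at 539 bp upstream, and 169.4, at 285 bp upstream. The tnt-3 summit scored 16.6 and 177.5 in replicates 1 and 2, and the mup-2 summit 20.1 and 154.1. The third troponin T gene, tnt-2, had 62.8 at 504 bp upstream, with 10.9 and 53.6. The unbound gene was tni-1, another troponin I gene, whose nearest summit (104.7) lay 2049 bp upstream, just outside the window.

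The remaining bound sarcomere genes, which complete the list, had scores from 35.4 to 85.9. The myosin regulatory light chain genes mlc-1 (85.9) and mlc-2 (77.5) had summits 112 and 485 bp upstream. The mlc-1 summit had no peak in the replicate 1 list and scored 80.9 in replicate 2. The unc-98 (82.9) and unc-96 (41.7) genes encode M-line proteins, and unc-78 (35.4) a protein of actin turnover. The act-4 actin gene had 2 summits in its window, the stronger (49.3) 10 bp inside the gene. The mlc and actin genes have close relatives in the genome, and how reads shared between them were treated is not stated. With the list of replicate 1 taken by itself 7 of the 11 genes were bound, and with that of replicate 2 all 11. Of the 10 strongest window summits none held CAGCTG, and 3 held CAACTG.

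**Figure D5:**
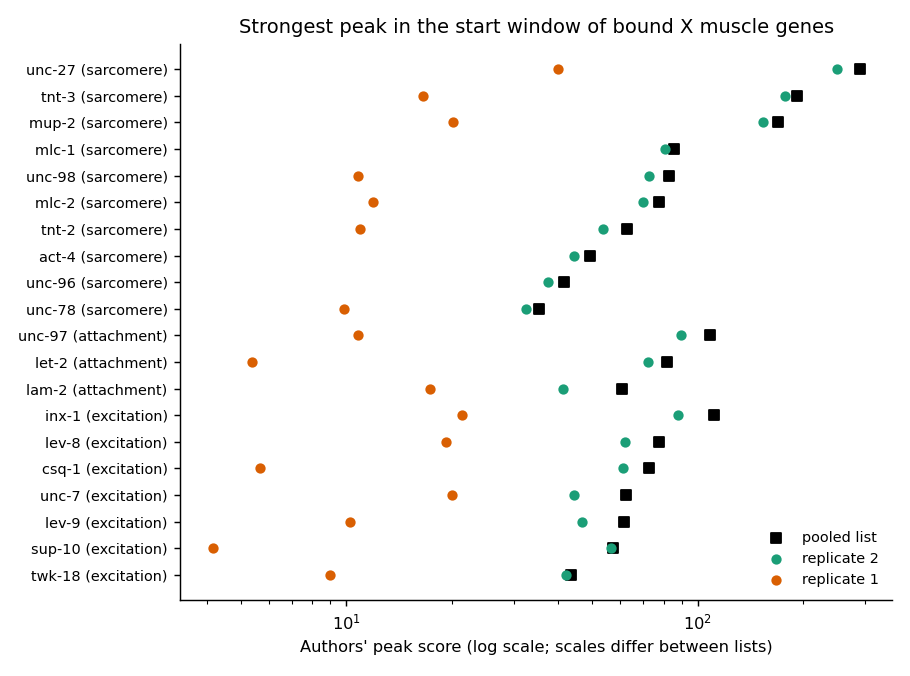
Authors' scores (log axis) of the strongest peak in the start window of each bound X gene of the sarcomere, attachment and excitation lists, in the pooled list (squares) and at the overlapping peak of each replicate (circles). The mlc-1, act-4 and unc-96 peaks have no replicate 1 point, and unc-27 is highest in the pooled list at 290.3.

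Of 9 attachment and basement membrane genes on X 3 were bound, beside 15.7% of all X genes. On the autosomes 15 of 25 were bound, beside 12.3% of all genes there, and the difference between X and autosomes was not tested. The bound genes were unc-97 (108.6), which encodes a LIM protein of muscle attachments, let-2 (81.7) and lam-2 (61.0), a laminin gene. The unc-97 summit lay 394 bp upstream and scored 10.8 in replicate 1 and 89.9 in replicate 2. The unbound genes included the dystroglycan genes dgn-1, dgn-2 and dgn-3, whose nearest summits lay 12179 to 20907 bp away. Also unbound by the start window was him-4, although an intron of it held the summit of 204.6 described above.

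Excitation genes, which serve channels, receptors and gap junctions, were bound in 7 of 14 cases on X, beside 15.7% of all X genes, and in 16 of 26 on the autosomes, beside 12.3%. The gap junction gene inx-1 led with 111.7 at 809 bp upstream, with 21.3 in replicate 1 and 87.9 in replicate 2. The acetylcholine receptor subunit gene lev-8 had 77.5 and csq-1, the calsequestrin gene, 72.8. The innexin gene unc-7 (62.5) and lev-9 (61.9) completed the highest 5. The others were sup-10 (57.3) and the potassium channel gene twk-18 (43.5). All 7 summits were upstream, from 16 to 1362 bp. The unbound genes included acr-8, cca-1 and egl-36, which encode an acetylcholine receptor subunit, a calcium channel and a potassium channel, and their nearest summits lay 1728 to 31928 bp away.

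The X-linked muscle regulators on the lists were hnd-1 and hlh-8, both bHLH genes, and neither was bound, although 1 of them was with the list of replicate 1 by itself. Their nearest summits lay 8681 bp downstream (46.1) and 6314 bp upstream (44.2). The pat-9 gene, which is not on the lists, was bound, with summits 416 bp (88.4) and 1531 bp (78.5) upstream. Of the splicing regulators sup-12 was bound through a weaker summit 521 bp upstream (52.0), while fox-1 had a high summit outside the window and mbl-1 was not bound. The fox-1 summit, printed above, lay 7378 bp inside the gene, with 21.035 in replicate 1 and 196.3 in replicate 2. The summit nearest to mbl-1 (117.8) lay 17101 bp upstream of it, and its own nearest start was that of F52G3.1, 2364 bp away. Of 9 guidance genes 2 were bound, madd-3 (61.6) and egl-17 (39.9), a share near the 15.7% of all X genes, and egl-15, lin-18 and lon-2 were not. With the list of replicate 2 by itself 4 of the 9 were bound. The lin-18 gene, a receptor of Wnt signals, had a summit of 115.0 in its intron, 876 bp inside the gene.

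Of the 6 genes on X that signal X dose or take part in dosage compensation, 4 were bound, beside 15.7% of all X genes. The sdc-2 gene, whose product brings the dosage compensation complex to X, had 82.6 at 412 bp upstream, with 5.04 in replicate 1 and 79.4 in replicate 2. The X signal gene ceh-39 had 51.0, xol-1 37.6 and sex-1 35.0. None of the 4 was bound in the top peaks of replicate 1 alone. The X signal gene fox-1 was not bound by the start window, and the nearest summit to sdc-1 lay 45753 bp away.

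Lists for other tissues held 1 bound X gene. None of 8 intestine genes and none of 7 epidermis genes was bound, and 1 of 13 neuronal genes was, unc-1 (47.3). With 15.7% of all X genes bound, lists of these sizes would hold few bound genes at that share as well. The intestine genes were elt-2, elt-4, pept-1 and vit-1 to vit-5, with nearest summits 8312 to 46360 bp away. The epidermis genes were ajm-1, dpy-3, dpy-6, dpy-7, dpy-8, elt-3 and nhr-25, with nearest summits 6606 to 33447 bp away. The ceh-14, lim-6 and mec-10 genes were among the unbound neuronal ones. The pharyngeal myosin gene myo-2, the sole pharyngeal muscle gene of the list on X, had its nearest summit (58.4) 9790 bp upstream. With 1 to 14 genes per list on X these counts describe the lists only.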

How the data were processed

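Peak lists were used as deposited, and no reads were processed. The authors gave each peak a score, whose scale and derivation are not stated. Per the deposited manifest, relaxed lists were made for each of the 2 replicates and for pooled alignments, and the IDR list derives from these. For the aligner, the caller, the threshold and the read depth nothing is stated in the labels or headers, and a score's precision cannot be given. Intervals cover counting error only.

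Coordinates are ce11, 1-based, and the reference was WBcel235 with Ensembl release 115 genes (19973 protein-coding). A gene's start is its most 5′ annotated base, and exons and introns count all gene types. Motifs were searched in 101 bp centred on each summit. Shares were compared with Fisher's exact two-sided test over 15 comparisons and with exact binomial tests over 4, each family adjusted by Benjamini-Hochberg at 0.05 (Python 3.11.15, scipy 1.17.1). Intervals are 95% Wilson, or Newcombe for differences. The code was tested on simulated data. Members of both replicate lists overlap by at least 1 bp a peak among the top 3254 of each.

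The members, the 11 gene lists and the motifs were chosen with earlier results of these data known. Named genes are those nearest the 20 highest X peaks, per list up to 5 bound X members with the highest peaks and 3 unbound in alphabetical order (all where 8 or fewer are on X), the 5 X genes with most summits, and the gene of the strongest peak in the 5 busiest bins. Of the listed symbols elt-5 and tnc-1 matched no gene and were not analysed here. Alternatives were each replicate's own list, the upper 50% by score, peaks found in both replicates, merged neighbours, the hlh-1 locus left out, other windows and distances, all transcript starts, and protein-coding genes only. Leaving out each autosome was added after seeing the data.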

Additional observations from a re-analysis of the deposited data

How the results depend on the processing

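Of 215 alternative values, 180 were counted as unchanged. These include counts of bound X genes of the sarcomere (7 to 11), attachment (3) and excitation (5 to 7) lists. Those counts had no test and were called unchanged within a set fold change. The others of the 180 kept their direction and their side of the threshold. The X share against length (ratios 1.30 to 1.47) and against genes (1.68 to 1.90), the intronic difference (-8.90 to -4.43 points), the MEX core (0.855 to 2.20), presence in both replicates (5.67 to 8.89) and CAGCTG (-3.62 to -0.734) kept both under all alternatives run for them. The remaining values below are X minus autosome differences in points unless called ratios, and the cause of each was not tested. Using 1 replicate's list at a time gave ranges of 2.73 to 8.28 above the median score, -0.632 to 4.89 in the top 10%, -8.71 to -0.49 within 500 bp of a start, -0.467 to 0.257 beyond 5000 bp, -1.67 to 7.82 upstream of the nearest start, 1.11 to 10.5 intergenic, -4.00 to 4.74 exonic and -6.90 to -1.62 for GAGAGA. In the upper 50% of the list by score, within 500 bp was -4.66, upstream of the nearest start 0.57, neighbour within 1000 bp -2.51 and GAGAGA -5.62, and the first and last no longer passed. Among peaks found in both replicates, these were -1.17, 2.77, -2.55 and -5.06, and exonic was 3.48; none passed. With neighbouring summits merged, the ratio against intergenic length was 1.09 (no longer past the threshold), top 10% 0.117, intergenic -0.123 and any of 3 E-boxes 4.79. Without the hlh-1 locus, top 10% was 0.103 and any of 3 E-boxes 4.53. The latter was 6.07 within 100 bp, and the ratio for CAGCTG was 1.21 within 25 bp and no longer passed. The far share was 1.13 with all transcript starts, 3.10 beyond 3000 bp and -2.06 beyond 10000 bp, the last past the threshold. With protein-coding genes only, intergenic was 4.43 and exonic -0.00026. With an autosome left out, chosen after seeing the data, any of 3 E-boxes was 5.66 (without II), 4.74 (IV) and 5.41 (V), and without V intergenic was -0.333 and bound genes 1.34. No paired analysis was possible because there is 1 group. Depth is unknown, so whether deeper libraries would add X peaks cannot be said.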
